A study of Mus musculus with 20 samples.

Results

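The genes described here are the 5 rows of the count files whose symbol is Bdnf, Ntf3, Ntrk2, Ntrk3 or Ngfr, out of 47729 genes listed. The rule that picks them uses symbols and no measured value, though the list was drawn up with earlier results of these data known: 2 neurotrophins, the Trk receptors that prefer them, and the p75 receptor. All 5 passed the filter on low counts in every comparison.

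RNA-seq libraries were made from poly(A) RNA of the cortex and hippocampus of 10 mice at postnatal day 7, all of strain C57Bl/6J, with 1 library of each tissue from each mouse. Mice 1 to 5 were WT, and mice 6 to 10 were Ube3aOE, which carry, beside the endogenous gene, a floxed bacterial artificial chromosome with the whole mouse Ube3a gene and its own flanking sequence, a design meant to express it where the gene's own promoter is active. The labels give 3 female and 2 male WT mice, and 2 female and 3 male Ube3aOE mice. The labels give no treatment. The study asked whether extra Ube3a, which encodes a ubiquitin ligase, changes transcript levels in the developing brain; with 5 mice per genotype in each tissue, the comparisons are between genotypes within a tissue and between tissues.

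Neurotrophins are secreted growth factors that are made as precursors, cleaved, and bound by Trk receptor tyrosine kinases on neurons, which then signal to survival, growth and synaptic pathways. BDNF binds TrkB (Ntrk2) and NT-3 (Ntf3) prefers TrkC (Ntrk3), whereas p75 (Ngfr) binds all neurotrophins and their precursors and can act with or against the Trk receptors. In the forebrain, Bdnf is known as an activity-regulated transcript of hippocampal and cortical excitatory neurons, Ntf3 is known from dentate granule cells and midline cortex, and Ngfr is best known from the cholinergic neurons of the basal forebrain.

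The labelled genotypes and tissues were checked first. Ube3a itself was at 54.4 to 70.0 CPM (counts scaled to a common library size by the TMM method) in WT cortex, 130 to 182 CPM in Ube3aOE cortex, 57.1 to 76.8 CPM in WT hippocampus and 142 to 195 CPM in Ube3aOE hippocampus, without overlap of the genotypes in either tissue. All 8 listed hippocampus markers were higher in hippocampus, and 5 of 8 listed neocortex markers were lower there, 1 being higher. Total counts on genes were 14191093 to 16752326 per library, and the cortex library of WT mouse 2 had the lowest share of reads on genes (69.7%). Several libraries stood apart in marker lists: the cortex of Ube3aOE mice 8 and 9 in hippocampus markers, the hippocampus of WT mouse 2 in neocortex markers, and hippocampus libraries of mice 4, 7, 9 and 10 in markers of thalamus, choroid plexus or striatum. Their values are given beside the results they touch, and in 2 mice the counts of Y-linked genes went against the labelled sex.

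The 2 ligand genes lie on different chromosomes and are built differently, which is why their start regions are shown (GRCm38 coordinates, promoter sequences from RefSeq on GRCm38.p6, 4 of the 5 genes matched). Bdnf occupies chr2:109674700-109727007 on the plus strand and has 7 listed promoters, ahead of its alternative first exons, which are spliced to a shared coding exon, and the counts pool all of them. Ntf3 occupies chr6:126101412-126166910 on the minus strand with 2 listed promoters. In the 250 bases before each start site, the letters TCACGTCA, a cyclic-AMP response element variant, were found on either strand in 1 of the 11 promoters of these genes, that of the Bdnf exon commonly called exon IV, and in 0.35% of all 32851 promoters in the table. The full palindrome TGACGTCA was in none of the 11 and in 1.55% of all, and the E-box CACGTG was in 1 of the 11, a promoter of Ntf3, and in 6.02% of all. The motifs were picked after the sequences were seen, do not overlap each other here, and are a description of letters only. Capitals mark the match, the Bdnf stretch is chr2:109692186-109692435 on the plus strand, and the Ntf3 stretch is chr6:126166911-126166994 on the minus strand, both 5′ to 3′ along the gene. The Bdnf stretch ends at the base before the start site, with the match 38 bases before that site, and the Ntf3 stretch, with the match 231 bases before its start site, stops where an annotated exon of Ntf3 begins.

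Bdnf: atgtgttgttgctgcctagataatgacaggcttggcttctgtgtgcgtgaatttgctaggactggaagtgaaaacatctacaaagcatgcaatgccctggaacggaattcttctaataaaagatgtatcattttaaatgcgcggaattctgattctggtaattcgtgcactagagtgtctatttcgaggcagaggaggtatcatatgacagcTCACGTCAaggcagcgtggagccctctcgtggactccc
Ntf3: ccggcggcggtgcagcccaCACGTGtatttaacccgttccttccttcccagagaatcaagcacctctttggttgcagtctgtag

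The receptor genes are long or compact in contrast. Ntrk2 spans chr13:58806569-59133970 on the plus strand and Ntrk3 spans chr7:78175959-78738012 on the minus strand, and both encode full-length kinases and truncated forms that gene counts do not separate. Ngfr spans chr11:95568818-95587735 on the minus strand with 1 annotated transcript. An annotated antisense transcript shares 896 exon bases with Bdnf, whereas no exon bases of the other 4 genes are shared with another gene.

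Within WT tissue, Ntrk2 was the most abundant of the 5 transcripts per kilobase of exon, and Ngfr or Bdnf the least. In WT cortex the levels were 28.1 ± 1.83 CPM per kilobase for Ntrk2, 3.60 ± 0.24 for Ntrk3, 2.90 ± 0.57 for Ntf3, 1.73 ± 0.13 for Ngfr and 0.829 ± 0.070 for Bdnf (SD, n = 5). In this order the ranges of Ntrk3 and Ntf3 overlapped, whereas those of the other neighbours did not. In WT hippocampus the levels were 21.02 ± 1.95 for Ntrk2, 7.10 ± 2.22 for Ntf3, 4.44 ± 0.73 for Ntrk3, 4.23 ± 0.73 for Bdnf and 1.23 ± 0.17 for Ngfr (SD, n = 5). Here the ranges of Ntf3 and Ntrk3 and those of Ntrk3 and Bdnf overlapped. Bdnf was last of the 5 in cortex and beside Ntrk3 in hippocampus. Per kilobase of the longest transcript, in place of the union of exons, Ntrk2 remained first in all 4 groups and the ranges of Ntrk3 and Ntf3 in WT cortex no longer overlapped.

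The region comparison set hippocampus against cortex. Averaged over the genotypes, 4 of the 5 genes passed the test (edgeR quasi-likelihood test, Benjamini-Hochberg adjusted p under 0.05 over 15661 genes), 3 higher and 1 lower in hippocampus, where 50.9% of all genes tested were called, 25.3% higher and 25.6% lower. At an unadjusted p under 0.05 the same 4 genes and 56.3% of all genes were found, so that the count of called members stands beside a background in which most genes differed. In tissue RNA, fewer cells of a type and less RNA per cell cannot be told apart.

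Bdnf showed the largest region difference of the 5 genes. In WT cortex it was at 5.81, 4.86, 5.25, 5.19 and 4.67 CPM in mice 1 to 5, and in WT hippocampus at 26.3, 19.0, 27.4, 27.5 and 31.5 CPM in the same mice. In Ube3aOE cortex it was at 4.57, 3.04, 11.2, 12.6 and 5.06 CPM in mice 6 to 10, and in Ube3aOE hippocampus at 25.5, 19.1, 23.6, 16.8 and 24.0 CPM. Every hippocampus library was above every cortex library, a separation that 9.27% of the genes tested also had. The hippocampal level was 3.90-fold higher (log2 fold change 1.96 ± 0.20 SE, adjusted p = 1.70e-07), and higher in 10 of 10 mice (exact permutation test swapping the tissues within each mouse, two-sided p = 0.00195, the smallest it allows). Of all genes tested, 97.9% changed less between the regions.

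The size of that Bdnf difference varied between mice with 2 libraries. The ratio of hippocampus to cortex was 3.90 to 6.74 in the 5 WT mice and 5.58, 6.28 and 4.75 in Ube3aOE mice 6, 7 and 10, but 2.12 in mouse 8 and 1.33 in mouse 9. The cortex libraries of these 2 mice held the highest Bdnf of all cortex libraries, and the hippocampus library of mouse 9 held the lowest Bdnf of all hippocampus libraries. In the same 2 cortex libraries the 8 hippocampus markers summed to 235 and 213 CPM, against 82.9 to 115 CPM in the other 8 cortex libraries and 419 to 736 CPM in hippocampus, all 8 markers being detected in every one, and the hippocampal gene Fibcd1 was at 54.7 and 44.1 CPM against 5.17 to 10.2 CPM. The neocortex markers summed to 929 and 1001 CPM there, against 1080 to 1215 CPM in the other cortex libraries. Among the hippocampus libraries, those of WT mouse 2 and Ube3aOE mouse 9 had the least Bdnf of their genotype and also the lowest sums of hippocampus markers, 419 and 427 CPM against 537 to 736 CPM in the other 8. The region difference of Bdnf was 2.36 ± 0.12 on the log2 scale without the cortex libraries of mice 8 and 9. Those were left out after their high values were seen, which widens the difference by construction. The part of hippocampus RNA in the Bdnf level was not tested.

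Ntf3 was also higher in hippocampus on average, but less uniformly. In WT cortex it was at 3.57, 5.23, 6.28, 4.81 and 4.92 CPM in mice 1 to 5. In WT hippocampus it was at 8.15, 17.7, 9.25, 12.0 and 13.7 CPM in the same mice. In Ube3aOE cortex it was at 4.19, 4.85, 19.2, 12.5 and 4.11 CPM in mice 6 to 10, and in Ube3aOE hippocampus at 13.5, 10.4, 9.81, 5.21 and 12.4 CPM, so that the tissues overlapped. The cortex of mice 8 and 9 was above the hippocampus of the same mice, the reverse of the other 8 mice. The averaged difference was 1.67-fold, higher in hippocampus in 8 of 10 mice (log2 0.74 ± 0.27 SE, adjusted p = 0.0297 by edgeR), whereas the exact permutation test within mice gave p = 0.0957. The call was lost when mouse 2, 4, 5, 6, 7 or 10 was left out, at adjusted p of 0.0587 to 0.0855, and without the hippocampus library of mouse 2 alone (0.66 on the log2 scale, adjusted p = 0.0549). Without the cortex of mice 8 and 9 the difference was 1.26 ± 0.18 on the log2 scale with an adjusted p of 1.46e-05. Those 2 libraries, the highest of cortex in Ntf3, were left out after their values were seen. Their removal widens the difference by construction, so this p is no support for it.

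Ntrk2 was the member that was lower in hippocampus. In WT cortex it was at 582, 487, 536, 552 and 558 CPM in mice 1 to 5, and in WT hippocampus at 411, 469, 388, 386 and 375 CPM. In Ube3aOE cortex it was at 589, 555, 542, 528 and 584 CPM in mice 6 to 10, and in Ube3aOE hippocampus at 395, 394, 434, 518 and 464 CPM. The tissues overlapped only in that the lowest cortex library, that of WT mouse 2, lay below the highest hippocampus library, that of Ube3aOE mouse 9. TrkB transcript was 1.30-fold lower in hippocampus (log2 -0.38 ± 0.05 SE, adjusted p = 3.76e-06), and lower in 10 of 10 mice (exact permutation p = 0.00195). The smallest within-mouse differences were those of mice 2 and 9, with hippocampus-to-cortex ratios of 0.963 and 0.981 against 0.671 to 0.800 in the other 8.

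Those 2 hippocampus libraries, with the highest Ntrk2 of their genotypes, also held the most neocortex-list RNA, 776 CPM in WT mouse 2 and 730 CPM in Ube3aOE mouse 9, against 429 to 572 CPM in the other 8 hippocampus libraries. All 8 neocortex markers were detected in every library. The part of this RNA in the Ntrk2 level was not tested. The ratio of mouse 2 also rests on its cortex library, the lowest of cortex in Ntrk2 at 487 CPM. That library also had the lowest share of reads on genes (69.7%). Without the hippocampus of mouse 2 the region difference of Ntrk2 was -0.40 on the log2 scale, and without that of mouse 9 it was also -0.40.

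Ntrk3 differed little between the tissues. In WT cortex it was at 111, 99.5, 111, 103 and 118 CPM in mice 1 to 5, and in WT hippocampus at 140, 169, 127, 111 and 123 CPM. In Ube3aOE cortex it was at 101, 110, 134, 135 and 131 CPM in mice 6 to 10, and in Ube3aOE hippocampus at 135, 115, 158, 138 and 110 CPM. The tissues overlapped in both genotypes, and mouse 10 was the 1 mouse with more in cortex. The averaged difference was 1.15-fold (log2 0.20 ± 0.08 SE, adjusted p = 0.0358), higher in hippocampus in 9 of 10 mice (exact permutation p = 0.0410). This call was lost when mouse 1, 2, 6 or 8 was left out, at adjusted p of 0.0600 to 0.105, and without the hippocampus library of mouse 2 alone (0.16 on the log2 scale, adjusted p = 0.0620) or its cortex library alone (0.20, adjusted p = 0.0558). With no filter on low counts both Ntf3 and Ntrk3 missed the threshold, at adjusted p of 0.0646 and 0.0619.

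Ngfr did not pass the region test. In WT cortex it was at 6.19, 5.83, 6.61, 5.39 and 5.79 CPM in mice 1 to 5. In WT hippocampus it was at 4.16, 4.80, 3.70, 4.88 and 3.70 CPM in the same mice. In Ube3aOE cortex it was at 6.86, 7.11, 4.83, 7.51 and 6.65 CPM in mice 6 to 10, and in Ube3aOE hippocampus at 3.63, 8.33, 5.26, 14.9 and 6.29 CPM, which overlapped. The hippocampus libraries of mice 9 and 7 were the highest of all 20. The averaged log2 fold change was -0.13 ± 0.18 SE (adjusted p = 0.553, exact permutation p = 0.799), with a 95% interval from -0.50 to 0.23. Without the hippocampus of mouse 9 it was -0.32 ± 0.12 and passed the test (adjusted p = 0.0394). That library, the highest in Ngfr, was left out after its value was seen. Its removal lowers the hippocampus mean by construction, so this pass is no support for a difference.

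**Figure D1:**
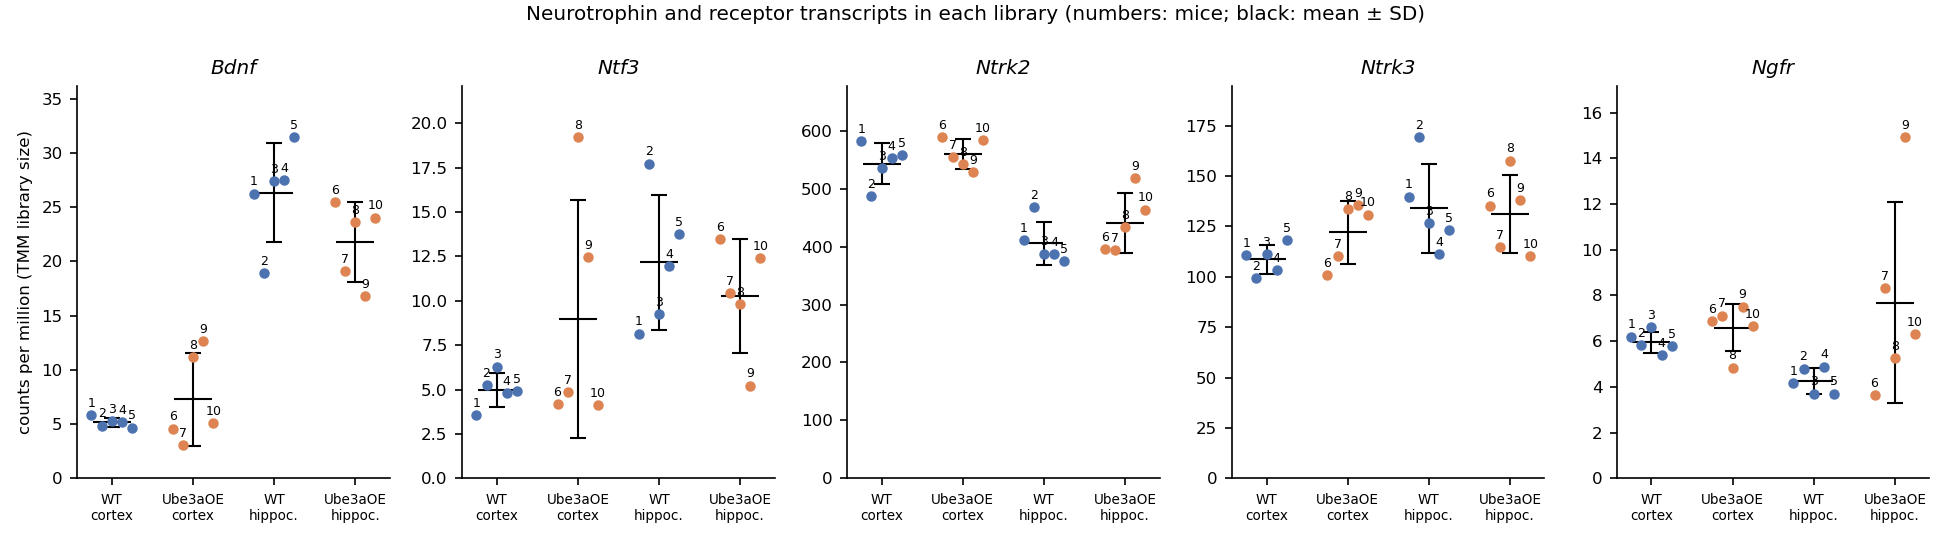
CPM of each of the 5 genes (vertical axes, starting at 0) in the 4 groups of 5 libraries, with each library marked by its mouse number and the mean ± SD in black (blue WT, orange Ube3aOE). Bdnf lies between 3.04 and 12.6 CPM in cortex and between 16.8 and 31.5 CPM in hippocampus, and the cortex of mice 8 and 9 and the hippocampus of mice 2 and 9 stand at the edge of their groups in several genes.

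**Figure D2:**
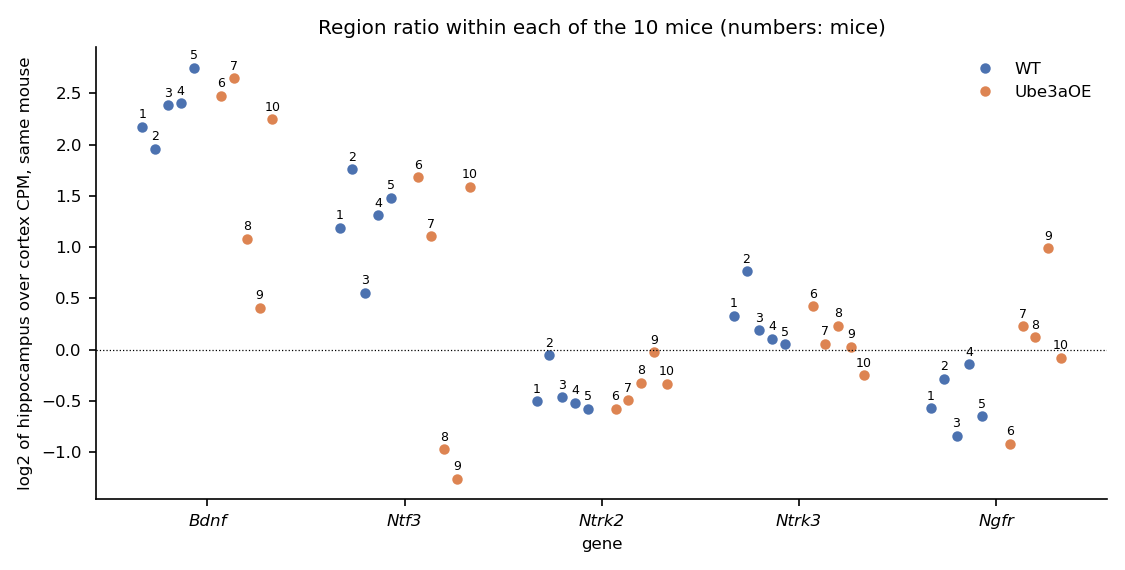
Log2 ratio of hippocampus to cortex CPM within each mouse (vertical axis) for the 5 genes, with mouse numbers, blue for WT and orange for Ube3aOE. Bdnf is above 0 and Ntrk2 below 0 in all 10 mice, and for Bdnf and Ntf3 mice 8 and 9 have the lowest ratios of the 10.

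Split by genotype, the region difference passed for 4 members in WT mice and for 2 in Ube3aOE mice, where 37.1% and 33.2% of all genes were called. The 4 calls in WT mice were 3 higher and 1 lower in hippocampus, beside 18.8% of all genes higher and 18.3% lower, and at an unadjusted p under 0.05 the members found were again 4 and 2, beside 46.1% and 42.6% of all genes. Bdnf was 5.10-fold higher in the hippocampus of WT mice (log2 2.35 ± 0.28 SE, adjusted p = 4.61e-06) and 2.98-fold in Ube3aOE mice (1.57 ± 0.27, adjusted p = 0.000245). Ntf3 differed by 1.29 ± 0.39 in WT mice (adjusted p = 0.0150) and by 0.19 ± 0.38 in Ube3aOE mice (adjusted p = 0.741). Ntrk2 was lower in both, by log2 fold changes of -0.42 ± 0.07 and -0.34 ± 0.07, and Ntrk3 passed in WT mice at 0.30 ± 0.11 (adjusted p = 0.0367) but not in Ube3aOE mice at 0.10 ± 0.11. In WT mice the call of Ntf3 was lost without mouse 2 or 5 (adjusted p of 0.0593 and 0.0566) and that of Ntrk3 without mouse 1, 2 or 3 (0.0629 to 0.203), and Ngfr, at -0.49 ± 0.26 (adjusted p = 0.143), passed when mouse 9 was left out (0.0409). These splits do not show that the genotypes differ. The test of that difference, the interaction of genotype and region, called 0 of the 5 genes and 0% of all genes with edgeR, DESeq2 and limma voom alike. Every member had an adjusted p of 0.997 in edgeR, and at an unadjusted p under 0.05 it found 0 members and 3.77% of all genes. At that threshold limma voom found 0 members and 3.40% of all genes, and DESeq2 2 members and 3.85%. The largest edgeR values of the interaction were -1.10 ± 0.54 for Ntf3, -0.78 ± 0.39 for Bdnf and 0.71 ± 0.36 for Ngfr on the log2 scale. Without the cortex libraries of mice 8 and 9, the interaction was -0.06 ± 0.36 for Ntf3 and 0.02 ± 0.23 for Bdnf. The region difference of Ntf3 in Ube3aOE mice was then 1.23 ± 0.28 with an adjusted p of 0.00249. Those libraries were left out after their high Bdnf and Ntf3 were seen, so the direction of these shifts is built in.

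The balance of the transcripts within a library shifted between tissues too. The count ratio of Ntrk2 to Ntrk3 was 5.00 ± 0.27 in WT cortex and 3.06 ± 0.26 in WT hippocampus, and 4.66 ± 0.79 and 3.42 ± 0.60 in Ube3aOE mice (SD, n = 5). It was lower in hippocampus in 10 of 10 mice, by a geometric mean factor of 0.668 (exact permutation p = 0.00195). The count ratio of Bdnf to Ntf3 was 1.08 ± 0.32 in WT cortex and 2.37 ± 0.83 in WT hippocampus, and 0.909 ± 0.290 and 2.26 ± 0.59 in Ube3aOE mice. It was higher in hippocampus in 10 of 10 mice, by a factor of 2.31 (exact permutation p = 0.00195), mice 8 and 9 included. A change of such a ratio between tissues does not depend on the library scaling. Gene length cancels only where both tissues use the same transcript forms, which gene counts do not resolve. Both ratios were chosen with the levels known.

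The genotype comparison asked whether extra Ube3a moved these transcripts. In hippocampus 0 of the 5 genes passed the edgeR test over 15220 genes, where 0.00657% of all genes were called, namely Ube3a. DESeq2 and limma voom also called 0 of the 5. At an unadjusted p under 0.05, 7.21% of all genes and 1 member, Ngfr, were found by edgeR. At that threshold DESeq2 found 1 member and 7.77% of all genes, and limma voom 0 members and 7.43%. In cortex 0 of the 5 passed over 14947 genes, where 0.00669% were called, again Ube3a, and 4.44% of all genes and 0 members had an unadjusted p under 0.05. DESeq2 and limma voom also found 0 members there, adjusted or not, beside 4.56% and 4.24% of all genes at the unadjusted threshold. No member separated the genotypes without overlap in either tissue, which 1.12% of all genes did in hippocampus and 0.676% in cortex.

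Among the ligands, Bdnf was at 26.3 ± 4.57 CPM in WT and 21.8 ± 3.69 CPM in Ube3aOE hippocampus (SD, n = 5). The log2 fold change was -0.27 ± 0.14 SE (95% interval -0.58 to 0.03, adjusted p = 0.677 by edgeR). In cortex it was at 5.16 ± 0.43 CPM in WT and 7.29 ± 4.30 CPM in Ube3aOE mice, with mice 8 and 9 above every WT mouse and mice 6 and 7 below every one. The cortical log2 fold change was 0.51 ± 0.35 (interval -0.25 to 1.27), and it was -0.29 ± 0.18 without the cortex of mice 8 and 9. For Ntf3 the cortical log2 fold change was 0.86 ± 0.45 (interval -0.15 to 1.88), and it was -0.18 ± 0.18 without those 2 libraries. In hippocampus Ntf3 differed by -0.24 ± 0.26 (interval -0.82 to 0.33).

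Among the receptors, Ntrk2 and Ntrk3 had the narrowest intervals. For Ntrk2 the log2 fold change was 0.12 ± 0.09 in hippocampus (interval -0.07 to 0.30) and 0.05 ± 0.06 in cortex (interval -0.07 to 0.17). For Ntrk3 it was -0.03 ± 0.12 in hippocampus (interval -0.30 to 0.23) and 0.17 ± 0.08 in cortex (interval -0.01 to 0.35), where the 3 Ube3aOE mice 8, 9 and 10 lay above every WT mouse. In cortex Ngfr was at 5.96 ± 0.46 CPM in WT and 6.59 ± 1.03 CPM in Ube3aOE mice (SD, n = 5), with 4 of the 5 Ube3aOE mice above every WT mouse and mouse 8 below every one. All adjusted p of these tests were at or above 0.719.

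Ngfr in hippocampus had the largest genotype value of the 5 genes in that tissue. It was at 4.25 ± 0.58 CPM in WT and 7.69 ± 4.39 CPM in Ube3aOE mice (SD, n = 5), with mice 7, 8, 9 and 10 above every WT mouse and mouse 6 below every one. The log2 fold change was 0.85 ± 0.32 SE, its adjusted p was 0.668, and the exact permutation test gave p = 0.0714. Without the hippocampus of mouse 9 the value was 0.47 ± 0.21, at an adjusted p of 0.837.

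Markers of other forebrain regions were high in several of these hippocampus libraries, in an order that differed from list to list. In that of mouse 9 the 8 striatum markers summed to 538 CPM, all 8 being detected, against 46.4 to 71.3 CPM in the other 9 hippocampus libraries. Lhx8, a transcription factor of basal forebrain cholinergic neurons, was at 6.24 CPM in mouse 9 and at 0 in the other 9, and Isl1, a transcription factor of striatal and cholinergic neurons, was at 8.36 CPM against at most 2.41 CPM. In mouse 7, second in Ngfr, the 8 choroid plexus markers summed to 1970 CPM and the 6 thalamus markers to 569 CPM, and in mouse 10, next in order, the thalamus markers summed to 1135 CPM. The choroid plexus list summed to 352 CPM in mouse 9 and to 10.2 to 33.8 CPM in the other 8. The thalamus list was at 480 CPM in WT mouse 4, whose Ngfr of 4.88 CPM was the highest of the WT hippocampus libraries, and at 123 to 199 CPM in the remaining 7 hippocampus libraries, mouse 9 included. The whole list of 6 cholinergic and septal markers, from which Lhx8 and Isl1 were picked after their values were seen, did not follow the order of Ngfr. It summed to 30.3 CPM in mouse 9, below the 102 CPM of mouse 10, the 44.7 CPM of WT mouse 4 and the 38.2 CPM of mouse 7, and to 3.32 to 15.4 CPM in the other 6. Zic4 made up most of the sum in mice 10, 4 and 7, at 90.1, 41.8 and 31.8 CPM, and was at 3.86 CPM in mouse 9. The part of these lists in the Ngfr level was not tested. With the cortex of mice 8 and 9 and the hippocampus of mice 2, 4, 7, 9 and 10 left out together, which keeps 3 WT and 2 Ube3aOE hippocampus libraries, the genotype value of Ngfr was 0.20, and its region difference was -0.62 on the log2 scale with an adjusted p of 0.000220. That set was chosen after seeing the data and holds the libraries highest in Ngfr, so the direction of these shifts is built in.

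**Figure D3:**
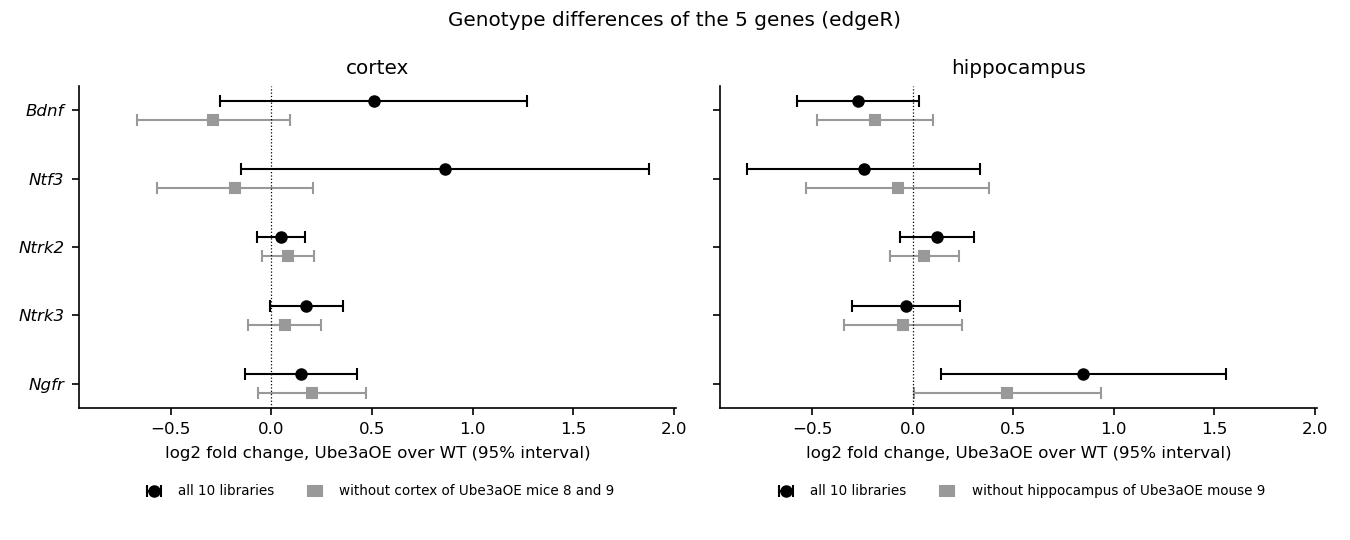
Log2 fold change of Ube3aOE over WT (horizontal axes) with 95% intervals for the 5 genes in cortex and hippocampus, with all 10 libraries (black) and with the libraries of the legend left out (grey). In cortex the values of Bdnf and Ntf3 move from 0.51 and 0.86 to -0.29 and -0.18, and in hippocampus that of Ngfr moves from 0.85 to 0.47.

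**Figure D4:**
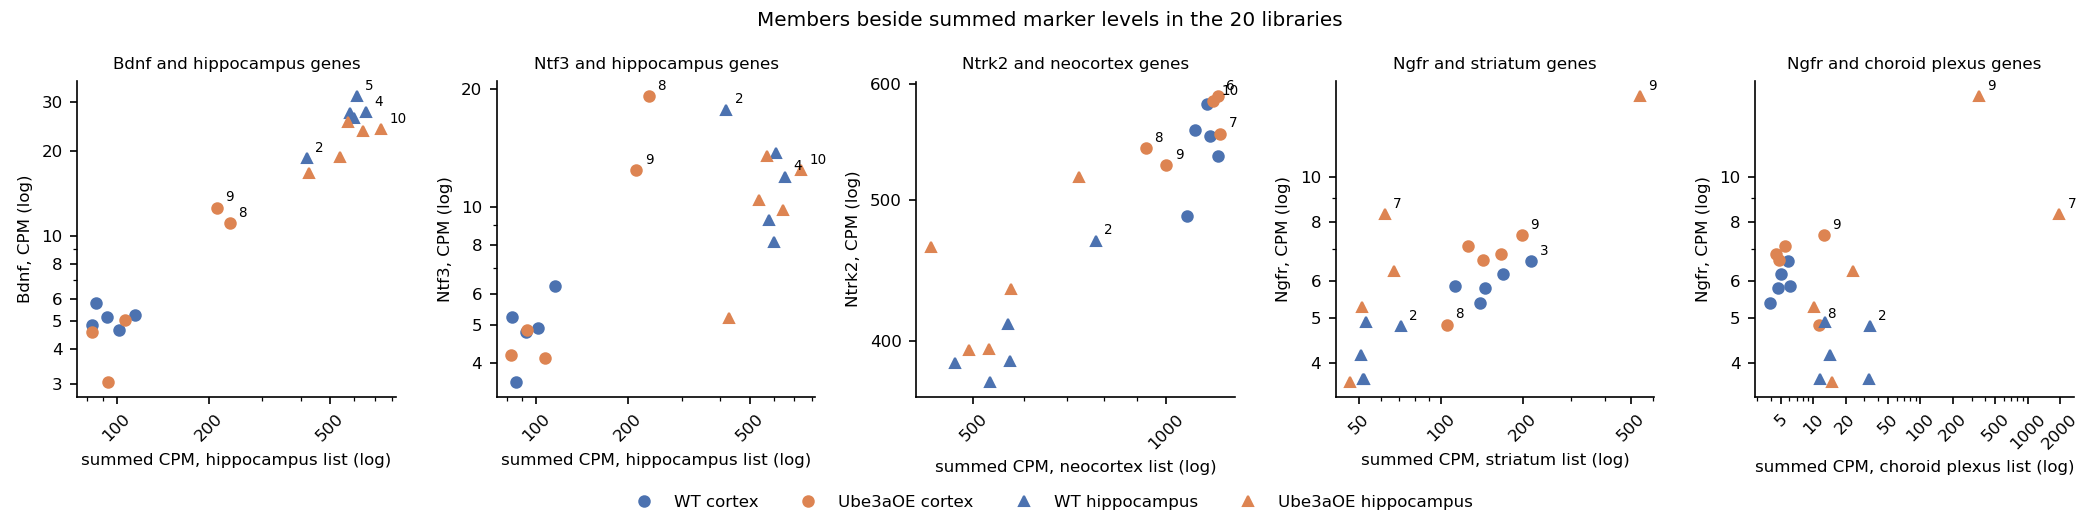
CPM of a gene (vertical axes, log scale) against the summed CPM of a marker list (horizontal axes, log scale) in the 20 libraries, circles for cortex and triangles for hippocampus, blue for WT and orange for Ube3aOE, with mouse numbers at some of them. The cortex of mice 8 and 9 lies between the other cortex libraries and the hippocampus libraries for Bdnf, and above most hippocampus libraries for Ntf3.

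The members also differed in which other transcripts followed them. Over the 20 libraries, genes with the highest Pearson correlation of log2 CPM among 15661 were Dgkg (r = 0.985), Fam163a and Ppp4r4 for Bdnf, Magi3 (0.976) and Cacna1i for Ntrk2, Trps1 (0.883), Rb1 and Tanc1 for Ntf3, Neto1 (0.875), Rabgap1l and Fosl2 for Ntrk3, and Cdh4 (0.853), Vat1l and Adcy5 for Ngfr. These libraries share the tissue difference and, within a tissue, the libraries that stood apart. With the 4 group means taken out, the leading genes were Rasa3 (0.912), Ism1 and Dgkg for Bdnf, Scrn1 (0.922), Adcyap1 and Magi3 for Ntrk2, Egfem1 (0.837), Tanc1 and Ptprq for Ntf3, and Grin2b (0.940), Wnk1 and Akap11 for Ntrk3. For Ngfr they were Slc22a3 (0.884), Isl1 and 4930570G19Rik, among which Isl1 is one of the cholinergic and septal markers that stood out in the hippocampus of mouse 9. No test was made of these values.

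The rest of the pathway was read from a list of 82 genes in 7 roles, 79 of which passed the filter. In the region comparison 27 were higher and 16 lower in hippocampus, 54.4% called beside 50.9% of all genes, with a median log2 fold change of 0.04 beside -0.01 for all genes. In the genotype comparisons 0 of the 79 were called by edgeR in either tissue, beside 0.00657% of all genes in hippocampus and 0.00669% in cortex. In hippocampus 8 of the 79 had an unadjusted p under 0.05, beside 7.21% of all genes, and in cortex 5 of the 79 did, beside 4.44% of all genes.

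Ntf5, encoding the neurotrophin NT-4, had at most 5 counts in a library. In the list of proteins that cleave or sort neurotrophins, 9 of 17 tested genes were called (52.9%, beside 50.9% of all genes), 8 higher and 1 lower in hippocampus, beside 25.3% of all genes higher and 25.6% lower. The lower one was Sorcs1, a receptor of the sortilin family, at 72.3 ± 20.1 CPM in cortex and 13.3 ± 7.50 CPM in hippocampus (SD, n = 10), 5.54-fold lower. The prohormone convertase Pcsk1 and the secreted protease Mmp9 were 1.78-fold higher each, and Furin, which cleaves neurotrophin precursors, was 1.12-fold higher. The sorting receptor Sort1, a partner of p75, had a log2 value of 0.10 and did not pass.

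Among 22 Trk adaptors and proximal signalling genes, 4 were higher, 5 lower and 13 not called (40.9% called, beside 50.9% of all genes). The docking protein Gab1 was 1.71-fold higher in hippocampus, the adaptor Crkl was 1.41-fold higher and the adaptor Sh2b2 was 1.56-fold lower. Shc1 to Shc4 and Frs2, the adaptors that bind the activated Trk kinase, did not pass, with log2 values from 0.01 to 0.07. The 5 listed membrane partners of Trk receptors were all called, a list of few genes beside 50.9% of all genes called: Islr2, which acts with Trk receptors in axon growth, was 2.03-fold higher, the Trk inhibitor Lrig1 was 1.23-fold higher, and the receptor phosphatase Ptprf was 1.26-fold lower, the other two being Ptprs (higher) and Slitrk5 (lower).

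Of the 16 partners and adaptors of p75, 4 were higher, 4 lower and 8 not called (50.0% called, beside 50.9% of all genes). Adam17, the protease that sheds the p75 ectodomain, was 1.29-fold higher in hippocampus, Bex1 was 1.28-fold lower and the kinase Ripk2 was 1.25-fold lower. The co-receptors Rtn4r and Lingo1 did not pass, with log2 values of 0.04 and 0.00.

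Of the 10 regulators of Bdnf transcription, 1 was higher and 3 were lower (40.0% called, beside 50.9% of all genes). Mef2c, a neuronal transcription factor, had the widest difference of the whole list, at 1657 ± 277 CPM in cortex and 201 ± 165 CPM in hippocampus (SD, n = 10), 8.29-fold lower where Bdnf was 3.90-fold higher. The repressor Rest was 1.27-fold higher. Creb1 and Crtc1, whose products act at cyclic-AMP response elements, had log2 values of -0.04 and 0.05 and did not pass. The activity of these products was not measured.

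Transcripts that BDNF or Trk signalling is known to induce were called in 7 of 8 cases, 6 higher and 1 lower, with a median log2 fold change of 0.65, beside 25.3% of all genes higher, 25.6% lower and a median of -0.01. Vgf, a secreted neuropeptide precursor, was at 51.6 ± 13.6 CPM in cortex and 143 ± 35.5 CPM in hippocampus (SD, n = 10), 2.76-fold higher. The immediate early genes Arc and Fos were 2.21-fold and 2.14-fold higher, whereas Homer1 was lower and Egr1, at a log2 value of -0.04, was not called. These genes are known to respond to other inputs as well.

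**Figure D5:**
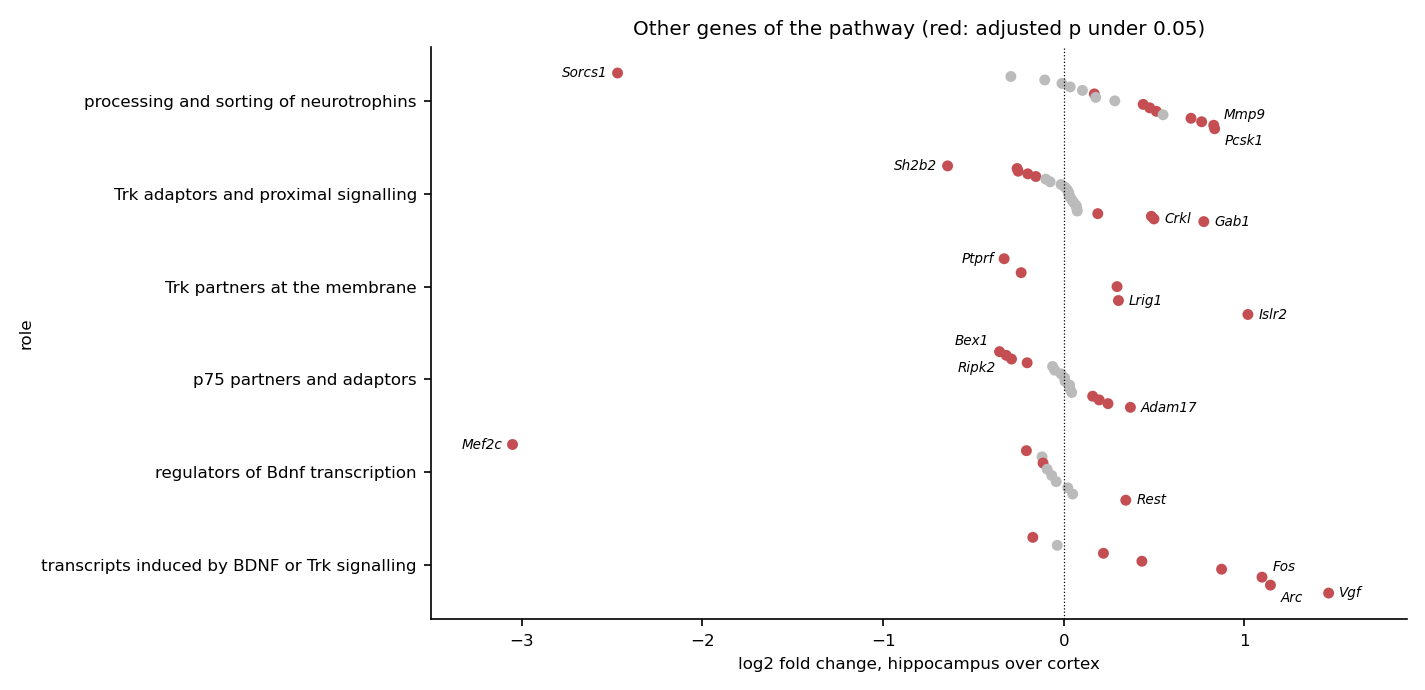
Log2 fold change of hippocampus over cortex (horizontal axis) for the tested pathway genes of the 6 roles with 5 or more of them (vertical axis), red where the adjusted p was under 0.05 and grey otherwise, with some genes labelled. Most values lie within 1 of 0, and Mef2c at -3.05 and Sorcs1 at -2.47 lie farthest out.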

How the data were processed

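Counts were used as the authors deposited them, 1 table of whole-number read counts per gene and library with no normalization. Per the submitters' processing notes, reads were aligned with HISAT2 2.1.0 and counted with HTSeq 0.11.2 on GRCm38 (mm10). Per the labels, libraries came from column-purified RNA with a stranded mRNA kit. The annotation release and the strand setting of the counting are not given in the sources used here. Rows for unassigned reads (HTSeq's no feature, ambiguous, not unique and not aligned) were left out of library sizes. Reads on genes were 69.7% to 81.2% of each library's total, not unique 10.3% to 13.7%, not aligned 2.74% to 8.66%, no feature 4.46% to 7.12% and ambiguous 0.756% to 0.879%. Positions came from GENCODE vM21 and promoter sequences from RefSeq.

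Genes were filtered with filterByExpr, scaled by TMM and tested with edgeR 4.0.16 (R 4.3.3, quasi-likelihood F test, robust) within each tissue for genotype and over all 20 libraries in 4 groups for region and interaction, with Benjamini-Hochberg adjustment over all genes and a threshold of 0.05. A library's CPM is its count over the TMM library size, and per kilobase values divide by the union of a gene's exons. Exact two-sided permutation tests of mean CPM permuted genotypes (252 arrangements, smallest p 0.00794) or swapped tissues within mice (1024 arrangements), 5 tests per comparison, unadjusted. Alternatives were DESeq2 1.42.0 size factors and tests, limma 3.58.1 voom, no filter, labelled sex, all libraries together, mouse as a block, and each mouse left out. The scripts were tested on simulated data. The labels number the mice 1 to 10 and use the same number for both tissues of an animal, and deviations from group means correlated within 9 of 10 mice above 0.1 (median r = 0.21, lowest -0.04). P-values of the genotype fits within a tissue and of the permutation tests measure the spread between mice. The main region and interaction fits hold no term for the mouse and treat both libraries of a mouse as independent. The fit with the mouse as a block is their paired form.

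The members and lists were chosen with earlier results of these data known. By likeness, the 3 genes with the highest r of log2 CPM (prior count 2) per member were named. Of the pathway list, the 3 called genes with the largest region change per role were named, besides some chosen after their values were seen (Furin, Sort1, Shc1 to Shc4, Frs2, Rtn4r, Lingo1, Creb1, Crtc1, Egr1, Homer1, Ptprs, Slitrk5, Ntf5). Of the marker genes, Fibcd1, Lhx8, Isl1, Zic4, Aldh1l1 and those of the vessel and meninges list were likewise named after their values were seen. The sets of libraries left out together were chosen after seeing the data. Some genes that these rules name are not reported here.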

Additional observations from a re-analysis of the deposited data

How the results depend on the processing

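Over the 21 alternatives run for each value, no member passed in a genotype comparison or in the interaction, and Bdnf and Ntrk2 passed in every region comparison. In the genotype fits within a tissue several of these repeat another fit, as leaving out libraries of the other tissue changes nothing there. With the mouse as a replicate block, the paired form of the region fit, the calls were the same: 4 members averaged over the genotypes (Bdnf 2.01, Ntf3 0.82, Ntrk2 -0.39 and Ntrk3 0.19 on the log2 scale, with adjusted p of 0.0490 for Ntf3 and 0.0427 for Ntrk3), 4 in WT mice, 2 in Ube3aOE mice and 0 in the interaction. In those block fits 8737, 6752, 6020 and 0 of 15661 genes were called in turn. The members called in the averaged region comparison were 2 in place of 4 with no filter on low counts, where 7879 of 28659 genes were called. Without the hippocampus of WT mouse 2 they were 2, beside 8218 of 15789 genes. With each mouse left out they were 2 to 4, beside 7284 to 7980 genes. In WT mice they were 2 to 5 with each mouse left out, beside 4477 to 5918 genes. In Ube3aOE mice they were 2 with each mouse left out, beside 3903 to 5443 genes. They were 5 there, beside 4727 of 15938 genes, with the cortex of mice 8 and 9 and the hippocampus of mice 2, 4, 7, 9 and 10 left out together. That set was chosen after seeing the data. Over all genes, genotype calls were 2 with labelled sex in hippocampus and 4 with DESeq2 in cortex, against 1. The labelled sex went against the counts of Y-linked genes in 2 mice, which limits the fit that uses it.

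Values that changed sign did not pass the test, except that of Ngfr in the region comparison of Ube3aOE mice, which ranged from -0.11 (without replicate 9) to 0.41 with each mouse left out, and was -0.16 without the hippocampus library of mouse 9 and -0.62 (adjusted p = 0.0128) without the 7 libraries. With each mouse left out, the genotype value of Ntrk3 in hippocampus ranged from -0.10 to 0.070 (0.070 without replicate 2, 0.01 without replicate 7, 0.03 without replicate 10), the region value of Ntf3 in Ube3aOE mice from -0.10 to 0.69 (-0.07 without replicate 10), and the interaction of Ntrk2 from -0.015 to 0.17. Without the hippocampus of mouse 2 the genotype value of Ntrk3 there was 0.070. Without the cortex of mice 8 and 9 the cortical genotype values were -0.29 for Bdnf and -0.18 for Ntf3, and the interaction of Bdnf was 0.016. Without the 7 libraries the hippocampal genotype values were 0.16 for Ntf3 and 0.17 for Ntrk3, the cortical ones -0.29 for Bdnf and -0.18 for Ntf3, and the interactions 0.084 for Bdnf, 0.35 for Ntf3 and 0.11 for Ntrk3. Beside what is built into leaving out libraries or adding genes, the cause was not tested.

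The counts behind Bdnf, Ntf3 and Ngfr, at 47 to 545, 56 to 322 and 60 to 232 per library, limit their precision more than those of Ntrk2 (6289 to 9272) and Ntrk3 (1330 to 2751). Gene counts do not resolve promoters of Bdnf or truncated Trk forms. If the counting ignored strand, reads of the antisense transcript over Bdnf exons would be counted with it.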

Other observations

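Other cell type lists were read beside the 5 genes as well, by summed CPM. The 6 Cajal-Retzius markers summed to 217 and 226 CPM in the cortex of Ube3aOE mice 8 and 9, the libraries with the highest cortical Bdnf and Ntf3, against 110 to 170 CPM in the other 8 cortex libraries, and to 105 to 248 CPM in hippocampus. Reln, a secreted protein of these cells, made up most of these sums, at 178 and 192 CPM in the cortex of mice 8 and 9. The 6 subplate markers summed to 66.5 to 104 CPM in cortex and 23.2 to 43.9 CPM in hippocampus. The 7 astrocyte markers summed to 1106 to 1846 CPM in cortex and 1902 to 2550 CPM in hippocampus. This sum was higher where Ntrk2, which astrocytes express in truncated form, was lower. Of the list, Aldh1l1 did not follow the sum, at 59.5 to 85.2 CPM in cortex and 53.2 to 80.7 CPM in hippocampus. The 7 oligodendrocyte lineage markers summed to 359 to 493 CPM in cortex and 400 to 628 CPM in hippocampus, and the 8 vessel and meninges markers to 248 to 395 CPM in hippocampus. In cortex the vessel and meninges list summed to 473 and 370 CPM in Ube3aOE mice 8 and 9, the highest of that tissue, against 224 to 346 CPM in the other 8. Of that list, Col1a1, Col1a2 and Dcn were above every other cortex library in both mice, Dcn at 79.1 and 42.6 CPM against at most 29.2 CPM. Lum was above them only in mouse 8. Cldn5, Pecam1, Pdgfrb and Rgs5 lay within the range of the other cortex libraries. The striatum list summed to 105 to 215 CPM in cortex, the thalamus list to 89.1 to 120 CPM, the choroid plexus list to 11.3 and 12.5 CPM in mice 8 and 9 and to 3.91 to 6.06 CPM in the other 8 cortex libraries, and the cholinergic and septal list to 2.81 to 5.73 CPM. The part of these cells in the levels of the 5 genes was not tested.

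No library was an outlier of its group in any of the 5 genes by Dixon's test at the 95% level. The test was run over 20 groups of 5 libraries, where chance alone marks about 1 in 20. It looks for 1 outlying library per group, and libraries that stand apart together can mask each other. In Ube3aOE cortex, mice 8 and 9 stood apart together in Bdnf (11.2 and 12.6 CPM) and Ntf3 (19.2 and 12.5 CPM). For those libraries the test cannot decide.

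Gm9885 is a transcript antisense to Ntrk3 that shares no exon bases with it. It was at 7.50 ± 0.95 CPM in WT hippocampus and 6.10 ± 0.60 CPM in WT cortex (SD, n = 5). In CPM it was far under Ntrk3 in each library, but Ntrk3 has many more exon bases. Per kilobase of exon the means were 3.39 for Gm9885 and 4.44 for Ntrk3 in WT hippocampus, and 2.76 and 3.60 in WT cortex.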
